A study of Cricetulus griseus with 6 samples.

Results

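The genes that build the glycosylphosphatidylinositol (GPI) anchor, join it to proteins and remodel it afterwards were examined together with a set of genes that encode GPI-anchored proteins. Members were found by symbol: 21 *Pig* genes (*Pigr*, which encodes the polymeric immunoglobulin receptor and has no role in the anchor, was left out), *Gpaa1*, *Pgap1*, *Pgap2* and *Pgap3*, and 14 anchored proteins, in all 39 of the 27873 entries of the data. The cells were CHO-T cells, Chinese hamster ovary cells that stably express mouse T-cadherin (*Cdh13*) from a retroviral vector and were selected with puromycin, so that both conditions carry the same transgene in 1 cell line. They were transfected with negative control siRNA (3 libraries) or with *Xbp1* siRNA (3 libraries), and RNA was taken 48 h later for stranded mRNA sequencing. T-cadherin is itself held in the membrane by a GPI anchor. It was not counted among the members, and its transcript had 85.2 ± 0.478 FPKM with control siRNA and 32.9 ± 0.476 FPKM with *Xbp1* siRNA (SD, n = 3 libraries). According to the paper, CHO-T cells had no detectable T-cadherin of their own apart from this construct. How far reads from the mouse transgene entered the FPKM value of *Cdh13* was not tested.

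A GPI anchor is a glycolipid made step by step on the membrane of the ER. N-acetylglucosamine is added to phosphatidylinositol and deacetylated, the inositol is acylated, and mannoses and ethanolamine phosphates are added in turn. A transamidase then cuts a signal from the C terminus of a newly made protein and joins the anchor to the new end. After attachment, an acyl chain is taken off the inositol in the ER and the lipid is remodelled in the Golgi, and the protein reaches the outer face of the plasma membrane. XBP1 is a transcription factor whose mRNA is spliced by the ER stress sensor IRE1α and which drives genes of the secretory pathway.

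Expression was measured in FPKM, the number of sequenced fragments scaled to transcript length and library size, which takes transcript length into account, so that levels of different genes may be compared. Differences were tested with limma on log2(FPKM + 0.1) over the 14361 entries with a mean of at least 0.1 FPKM, and p-values were adjusted over all of them. Changes are given as log2 differences, *Xbp1* siRNA over control siRNA. A gene is described as higher or lower when its adjusted p was under 0.05, and as called when its log2 fold change was also at least 1 in size. On this scale the change of a weakly expressed gene is understated. Ranges after ± are SD over 3 libraries. The libraries did not carry labels of separate cultures, so the p-values measure the spread between these libraries.

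The labels were checked by the silenced gene: *Xbp1* had between 26.0 and 28.4 FPKM with control siRNA and between 1.39 and 2.18 FPKM with *Xbp1* siRNA. The FPKM columns summed to between 646651 and 666267 with control siRNA and to between 593487 and 600986 with *Xbp1* siRNA, and the median log2 fold change of all genes tested was 0.0063. Steps among low FPKM values, taken as single reads, put the depth of the libraries between 94.0% and 116% of that of control replicate 1. Of the markers of cell types, *Vim* had between 296 and 389 FPKM, while *Col1a1*, *Col1a2*, *Krt18*, *Fshr*, *Ptprc*, *Cd3e* and *Cdh5* were listed at 0 in every library. *Cdh2*, *Itgam* and *Pecam1* had at most 0.268 FPKM and were at 0 in 1 or more libraries, and *Pecam1*, with 0.175 ± 0.114 FPKM against 0.0278 ± 0.0243 FPKM, did not pass (adjusted p = 0.165, limma). The ovarian markers *Amh* and *Inha* were detected in every library, at 2.07 to 3.55 FPKM and 2.05 to 4.10 FPKM, and did not pass the test. Of the epithelial markers, *Epcam* (1.82 ± 0.105 against 4.72 ± 0.644 FPKM) and *Cdh1* (0.131 ± 0.0970 against 0.434 ± 0.104 FPKM) were called higher with *Xbp1* siRNA. The adjusted p was 2.56e-04 for *Epcam* and 0.0489 for *Cdh1* (limma), the latter just under the limit and at a low level. Of the mesenchymal markers, *Vim* was lower (377 ± 10.7 against 304 ± 13.2 FPKM) and *Fn1* was higher (13.1 ± 0.432 against 23.3 ± 0.123 FPKM). The part of these markers in the results below was not tested.

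The GPI genes that passed the test were all higher with *Xbp1* siRNA, mostly by small differences. Of the 39 members, 35 passed the filter on low values, and 17 of these were higher with *Xbp1* siRNA, or 48.6%, against 20.2% of all genes tested. None was lower at an adjusted p under 0.05 by limma, nor at an unadjusted p under 0.05, while 20.2% of all genes tested were lower. Among genes with a mean of at least 1 FPKM, 17 of 34 members were higher, against 23.4% higher and 24.3% lower of all such genes. *Pgap1*, among the 17, reached this mean only through the libraries with *Xbp1* siRNA (0.850 FPKM with control siRNA against 1.77 FPKM). The 3 libraries with *Xbp1* siRNA lay above the 3 control libraries for 19 members and below them for none, against 26.1% and 25.8% of all genes tested. The median log2 fold change of the members was 0.27 against 0.0063 for all genes tested. Of the 35 values, 31 were above 0, against 7278 of 14361 for all genes tested. Only *Reck* was called higher and no member was called lower, against 2.69% and 2.5% of all genes tested. In bulk RNA, more cells that express a gene and more of its RNA in each cell cannot be told apart, and likewise for fewer cells and less RNA.

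**Figure D1:**
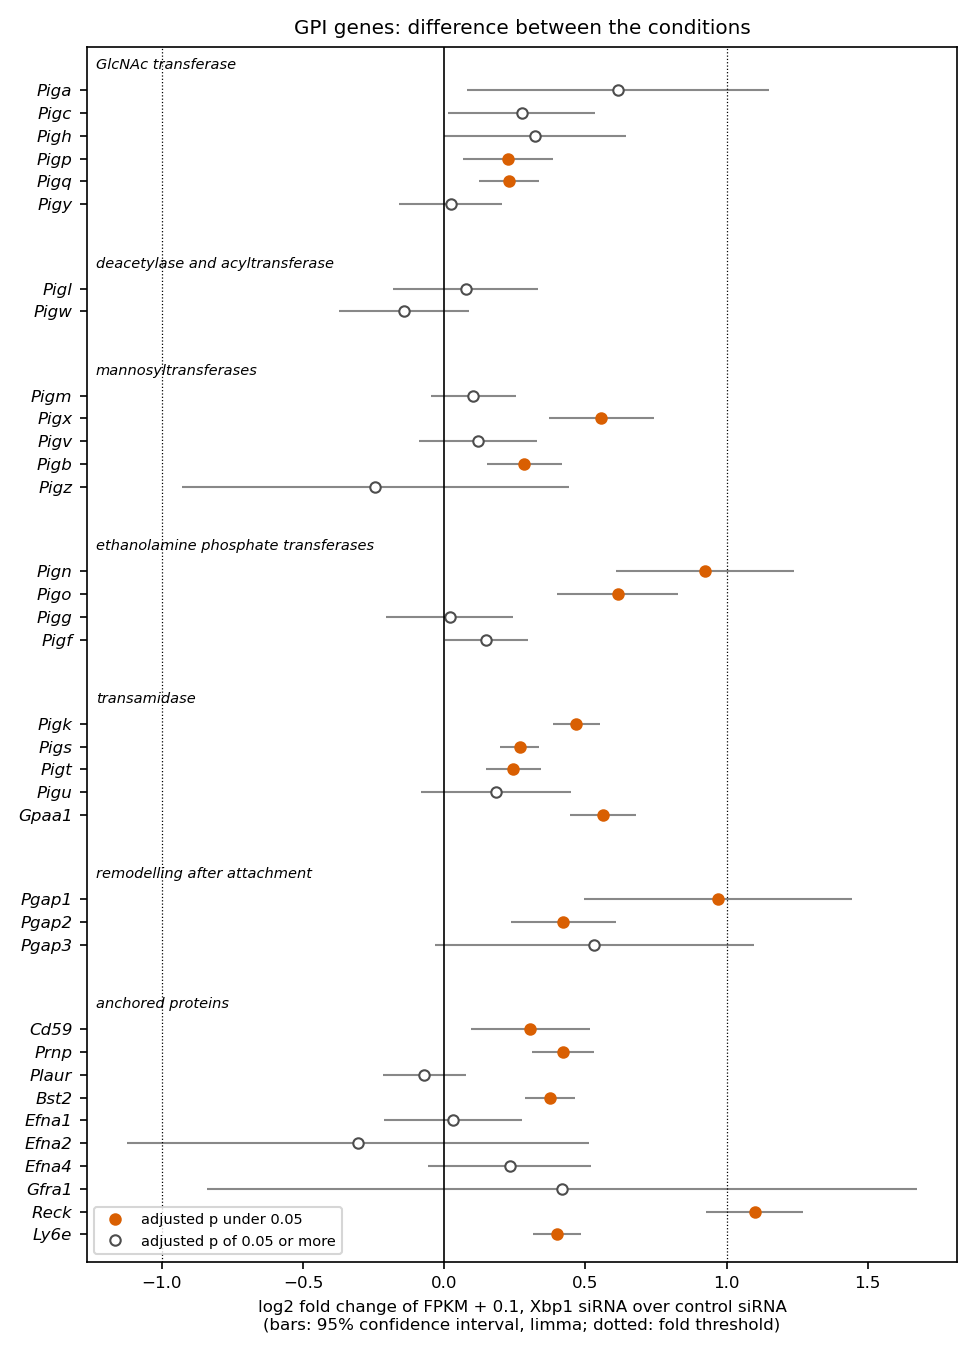
Log2 difference of FPKM + 0.1 (Xbp1 siRNA over control siRNA, 3 libraries each) for the 35 members tested, grouped by role, with 95% confidence intervals from limma; filled points have an adjusted p under 0.05 and dotted lines mark the fold threshold. All 17 filled points lie to the right of 0, and that of Reck alone lies beyond the threshold, at 1.10.

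**Figure D2:**
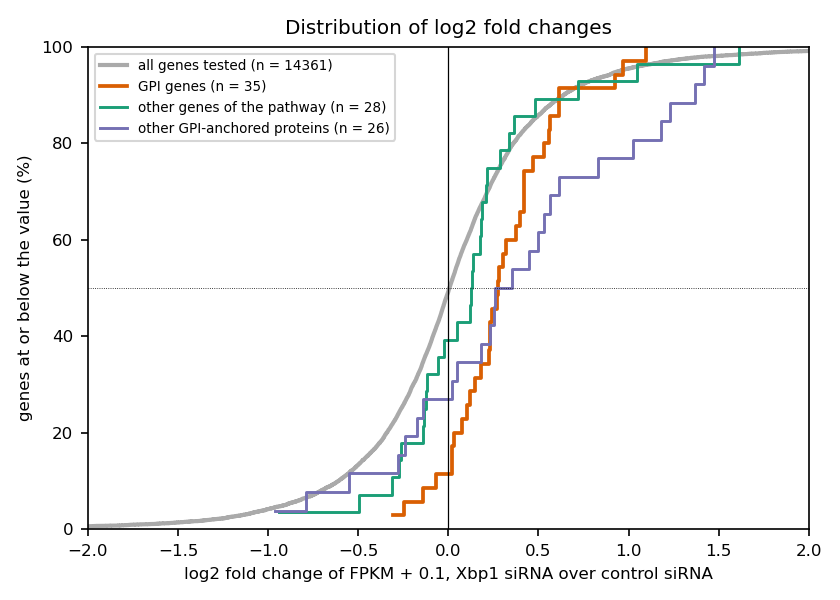
Cumulative share (%) of genes at or below each log2 difference for all 14361 genes tested, the 35 GPI genes, 28 other genes of the pathway (supply, late modification, ER exit and release), and 26 other GPI-anchored proteins. Of the GPI genes, 4 lie below 0, and the curve crosses 50% at 0.27, against 0.0063 for all genes; the x axis is limited to −2 to 2.

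The first reaction is carried out by a transferase complex whose catalytic subunit is PIGA. Its subunits were expressed at very different levels. *Piga* was the weakest, with 0.988, 1.58 and 0.926 FPKM with control siRNA and 1.88, 1.90 and 1.60 FPKM with *Xbp1* siRNA. *Pigq* was the strongest, with 120.4, 115 and 111 FPKM with control siRNA and 143, 132 and 132 FPKM with *Xbp1* siRNA. Within a library *Pigq* was between 69.6 and 122 times as high as *Piga*.

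The conditions were apart for *Piga*, *Pigp* and *Pigq*, which is 3 of 6 subunits against 26.1% of all genes tested. Of the 6, 2 were higher, against 20.2%. *Pigq* was 1.17-fold higher, a log2 difference of 0.23 (standard error 0.046, adjusted p = 0.0059 from limma). *Pigp*, a small subunit of the complex, had 85.4, 92.0 and 102 FPKM with control siRNA and 103, 109 and 113 FPKM with *Xbp1* siRNA. Its log2 difference was also 0.23 (adjusted p = 0.0317, limma). The adjusted p of *Pigp* was no longer under 0.05 on leaving out control replicate 1, control replicate 2, *Xbp1* siRNA replicate 2 or *Xbp1* siRNA replicate 3, where it lay between 0.0755 and 0.102 (limma).

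*Piga* had a log2 difference of 0.61 with a 95% confidence interval from 0.08 to 1.15 and did not pass (adjusted p = 0.0680, limma). Without control replicate 2, the highest of its control libraries, *Piga* passed with 0.84 (adjusted p = 0.0169, limma), and without any other single library it had 0.48 to 0.69 and did not pass. *Pigc* had a log2 difference of 0.27 and *Pigh* of 0.32, with overlapping libraries and adjusted p of 0.0876 and 0.102 (limma). On leaving out single libraries *Pigh* had 0.19 to 0.41 and did not pass. *Pigc* passed without *Xbp1* siRNA replicate 1, with 0.39 (adjusted p = 0.0162, limma), and without any other single library it had 0.20 to 0.33 and did not pass. *Pigy* had 65.6 ± 5.41 FPKM with control siRNA and 66.6 ± 5.28 FPKM with *Xbp1* siRNA, a log2 difference of 0.02 with an interval from −0.16 to 0.21. In other mammals *Pigy* and *Pyurf* are encoded by the same mRNA. *Pyurf* has an entry of its own here, with a log2 difference of −0.09 (adjusted p = 0.205, limma), and how reads divide between the entries was not tested.

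The next steps rest on single enzymes, and neither passed the test. *Pigl*, the deacetylase, had 3.10, 3.46 and 3.17 FPKM with control siRNA and 3.65, 3.31 and 3.31 FPKM with *Xbp1* siRNA, and a log2 difference of 0.08 (95% interval −0.18 to 0.33). *Pigw*, which acylates the inositol, had 8.75, 8.91 and 9.74 FPKM with control siRNA and 9.25, 8.20 and 7.41 FPKM with *Xbp1* siRNA. Its log2 difference of −0.14 (95% interval −0.37 to 0.09) was 1 of the 4 negative values among the members.

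Of the mannosyltransferases, the catalytic enzymes PIGM and PIGV add the first and the second mannose, PIGB the third and PIGZ the fourth, and PIGX stabilises PIGM. *Pigx* was higher, with 45.4, 36.7 and 41.6 FPKM with control siRNA and 60.4, 63.6 and 57.5 FPKM with *Xbp1* siRNA. The conditions did not overlap, and the log2 difference was 0.56 (standard error 0.079, adjusted p = 0.0012, limma). Its partner *Pigm* had 11.0 ± 0.432 and 11.9 ± 0.461 FPKM, a log2 difference of 0.10 (adjusted p = 0.248, limma). The ratio of *Pigx* to *Pigm* within a library was 4.25, 3.19 and 3.80 with control siRNA and 5.30, 5.35 and 4.67 with *Xbp1* siRNA.

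*Pigb* was higher, with 14.6, 13.9 and 13.9 FPKM with control siRNA against 18.0, 16.6 and 17.1 FPKM with *Xbp1* siRNA. The conditions did not overlap, and its log2 difference was 0.28 (adjusted p = 0.0061, limma). *Pigv* had a log2 difference of 0.12 and overlapping libraries. *Pigz*, the weakest of the group, had 1.67, 1.23 and 0.805 FPKM with control siRNA and 0.770, 1.04 and 1.20 FPKM with *Xbp1* siRNA, which overlapped, and a log2 difference of −0.24. Leaving out single libraries moved it between −0.50 (without control replicate 3) and −0.014 (without control replicate 1). The interval of *Pigz* ran from −0.93 to 0.44.

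Of the 4 ethanolamine phosphate transferases, 2 were higher, against 20.2% of all genes tested, and 2 did not pass. The conditions did not overlap for 3 of the 4, against 26.1% of all genes tested. PIGN adds ethanolamine phosphate to the first mannose. *Pign* had 2.60, 2.64 and 3.37 FPKM with control siRNA and 5.85, 5.68 and 4.99 FPKM with *Xbp1* siRNA, and each of the latter was above each of the former. It was 1.92-fold higher, a log2 difference of 0.92 (standard error 0.14, adjusted p = 0.0014, limma), just under the fold threshold. Without control replicate 3 its log2 difference was 1.04 and it was called.

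PIGO adds the ethanolamine phosphate through which the protein is attached. *Pigo* had 4.05, 3.98 and 4.24 FPKM with control siRNA and 5.92, 6.75 and 6.28 FPKM with *Xbp1* siRNA. The conditions did not overlap, and its log2 difference was 0.61 (standard error 0.092, adjusted p = 0.0015, limma). *Pigg*, whose product modifies the second mannose, had 9.21 ± 1.12 and 9.30 ± 0.284 FPKM, a log2 difference of 0.02 with an interval from −0.20 to 0.24. PIGF is the partner of both PIGO and PIGG. *Pigf* had 22.2, 23.7 and 23.1 FPKM with control siRNA and 24.9, 24.0 and 27.6 FPKM with *Xbp1* siRNA, which did not overlap, and its log2 difference of 0.15 did not pass (adjusted p = 0.10, limma).

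The transamidase held the most strongly expressed of the 25 genes of synthesis, attachment and remodelling, *Pigs* and *Pigt*, and 4 of its 5 subunits were higher, against 20.2% of all genes tested. PIGK is the subunit that cuts the signal from the protein. *Pigk* had 74.7, 72.9 and 75.0 FPKM with control siRNA and 105, 104 and 99.4 FPKM with *Xbp1* siRNA, a log2 difference of 0.47 (standard error 0.035, adjusted p = 5.59e-05, limma). GPAA1 takes part in joining the anchor to the protein. *Gpaa1* had 52.5, 51.4 and 53.1 FPKM with control siRNA and 82.5, 73.0 and 77.0 FPKM with *Xbp1* siRNA, a log2 difference of 0.56 (standard error 0.050, adjusted p = 1.23e-04, limma). In both genes the lowest library with *Xbp1* siRNA stood well above the highest control library.

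*Pigs* had 236, 234 and 229 FPKM with control siRNA and 286, 281 and 275 FPKM with *Xbp1* siRNA, a log2 difference of 0.27 (adjusted p = 3.68e-04, limma). *Pigt* had 159, 151 and 144 FPKM against 182, 176 and 179 FPKM, a log2 difference of 0.24 (adjusted p = 0.0027, limma). Both are non-catalytic subunits, and their libraries did not overlap between the conditions. *Pigu*, the weakest subunit, had 15.4, 21.3 and 18.3 FPKM with control siRNA and 20.3, 19.8 and 21.9 FPKM with *Xbp1* siRNA, which overlapped (log2 difference 0.18, adjusted p = 0.245, limma). Without control replicate 2, the highest of its control libraries, *Pigu* had 0.30 (adjusted p = 0.0491, limma), and without control replicate 1, the lowest, it had 0.06 (adjusted p = 0.599, limma).

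**Figure D3:**
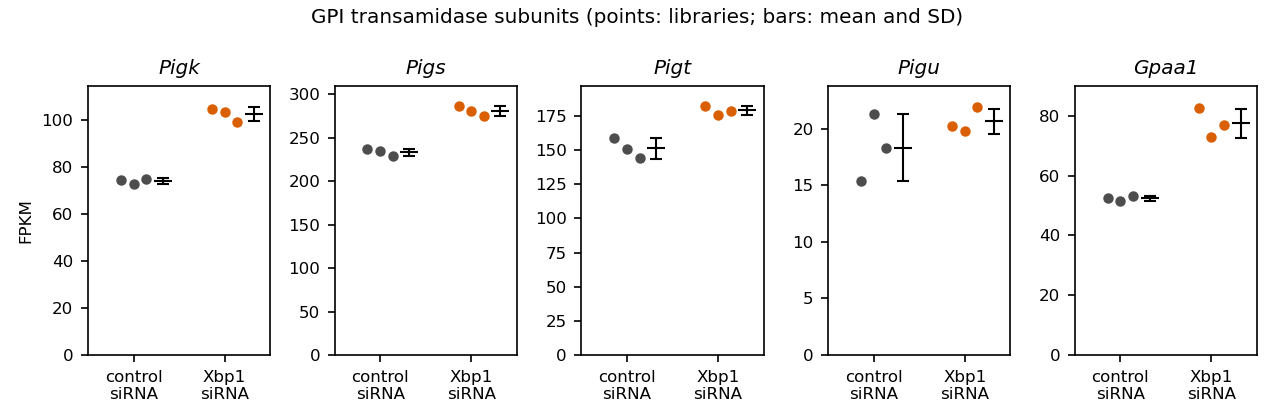
FPKM of the 5 transamidase subunits in each library (points) with the mean and SD (bars) for control siRNA and Xbp1 siRNA, 3 libraries each, on axes that start at 0. The conditions are apart for Pigk, Pigs, Pigt and Gpaa1 and overlap for Pigu, where control replicate 2 had 21.3 FPKM.

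Ratios between subunits within a library differed between the conditions for some pairs. The ratio of *Pigs* to *Pigt* was 1.54 ± 0.0511 with control siRNA and 1.57 ± 0.0295 with *Xbp1* siRNA, and these overlapped. The ratio of *Pigs* to *Gpaa1* was 4.50, 4.55 and 4.31 with control siRNA and 3.47, 3.85 and 3.57 with *Xbp1* siRNA, and the ratio of *Pigs* to *Pigk* was between 3.06 and 3.21 with control siRNA and between 2.71 and 2.77 with *Xbp1* siRNA. The latter ratios did not overlap between the conditions, and with 3 libraries a side the smallest p that an exact permutation test (two-sided) can reach is 0.10. These ratios are taken within a library and do not depend on a scaling factor of the library. Quantile normalization does not use a single factor for each library. After it, the log2 difference was 0.42 for *Pigs*, 0.36 for *Pigt*, 0.54 for *Pigk* and 0.62 for *Gpaa1*. The summed level of the subunits was 529 ± 9.33 FPKM with control siRNA and 661 ± 13.3 FPKM with *Xbp1* siRNA, which is 24.8% higher.

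The genes that act after attachment were 3, of which 2 were higher, against 20.2% of all genes tested. PGAP1 removes the acyl chain from the inositol in the ER. *Pgap1* had 0.930, 0.884 and 0.737 FPKM with control siRNA and 1.41, 2.00 and 1.90 FPKM with *Xbp1* siRNA, 2.08-fold higher as a ratio of means without overlap. Its log2 difference was 0.97 (standard error 0.20, adjusted p = 0.0073, limma), and it was called without control replicate 1 (1.03) and without *Xbp1* siRNA replicate 1 (1.12). With a pseudocount of 1 *Pgap1* had 0.58, and after quantile normalization 0.85. PGAP2 and PGAP3 replace an unsaturated fatty acid of the anchor by a saturated one in the Golgi.

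*Pgap2* had 47.6, 39.0 and 39.8 FPKM with control siRNA and 59.2, 55.9 and 53.8 FPKM with *Xbp1* siRNA, a log2 difference of 0.42 (adjusted p = 0.0046, limma), with no overlap. *Pgap3* had 6.22, 4.83 and 4.53 FPKM with control siRNA and 11.0, 5.73 and 6.63 FPKM with *Xbp1* siRNA. Its log2 difference of 0.53 did not pass (adjusted p = 0.122, limma). Without that library it was 0.26 (adjusted p = 0.274, limma).

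Over the 25 genes of synthesis, attachment and remodelling, 12 were higher and none was lower, against 20.2% of all genes tested in each direction. Their summed level was 1017, 999 and 988 FPKM with control siRNA and 1247, 1207 and 1211 FPKM with *Xbp1* siRNA, a difference of 22.1% between the means. All of these genes were expressed, with control means from 0.850 FPKM for *Pgap1* to 233 FPKM for *Pigs*. The 4 genes with the largest log2 differences, *Pgap1*, *Pign*, *Pigo* and *Piga*, had control means between 0.850 and 4.09 FPKM, and *Piga* did not pass. In the same range, *Pigl* (3.24 FPKM) had a log2 difference of 0.08 and *Pigz* (1.24 FPKM) of −0.24.

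**Figure D4:**
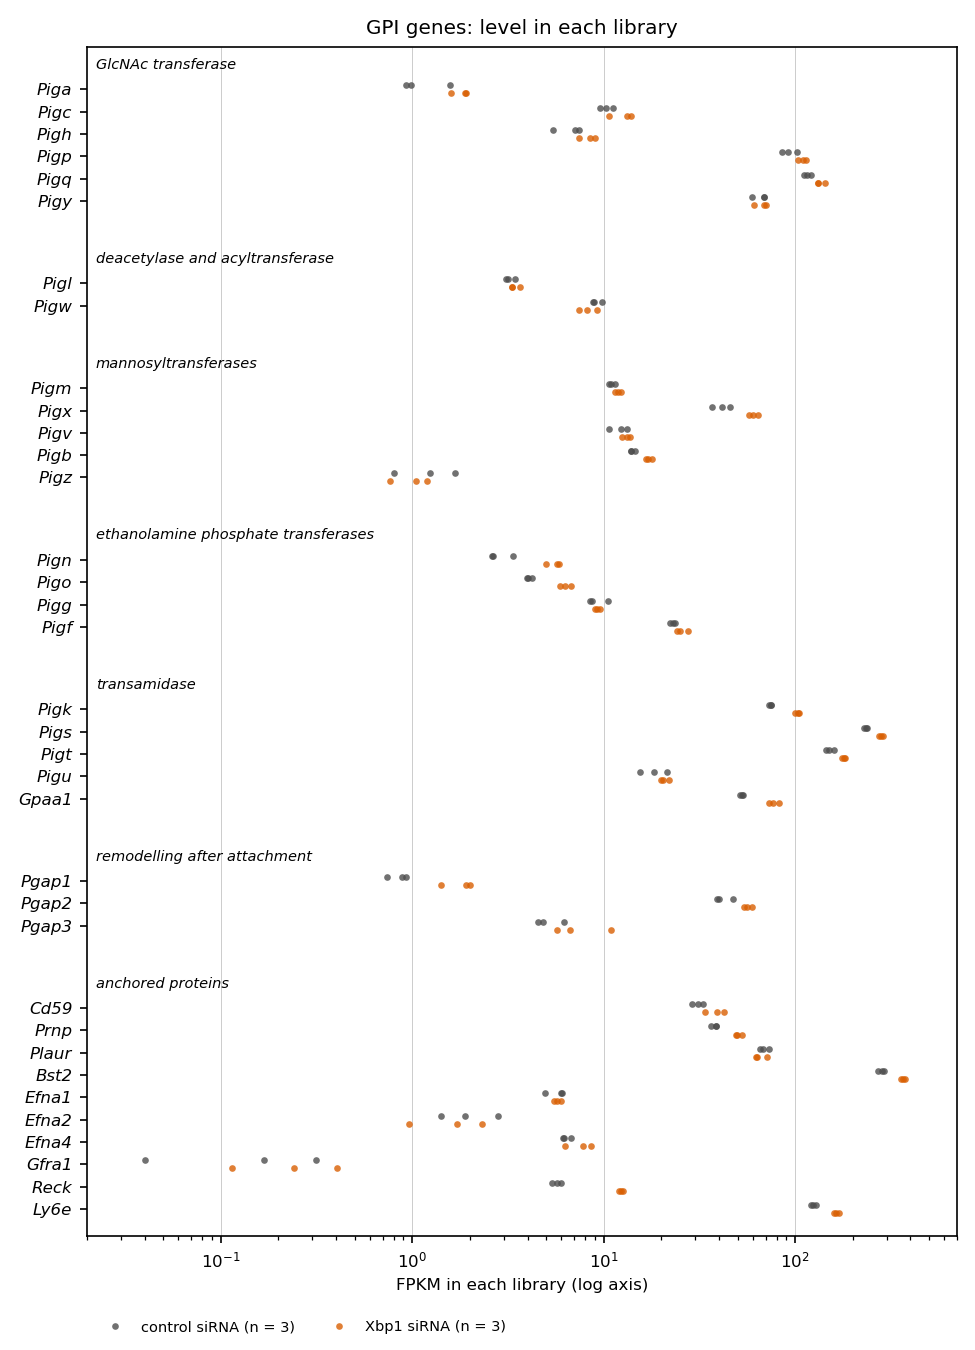
FPKM in each library (log axis) of the 35 members tested, grouped by role, for control siRNA and Xbp1 siRNA with 3 libraries each. Levels run from 0.0401 FPKM for Gfra1 to 376 FPKM for Bst2, and the shift between the conditions is small beside the range between genes.

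Of the 14 anchored proteins, 10 passed the filter on low values, 5 were higher and none was lower, against 20.2% of all genes tested in each direction. RECK is an anchored inhibitor of matrix metalloproteinases. *Reck* had 6.0, 5.67 and 5.38 FPKM with control siRNA and 12.6, 12.3 and 12.0 FPKM with *Xbp1* siRNA, with the conditions far apart. It was 2.16-fold higher, a log2 difference of 1.10 (standard error 0.073, adjusted p = 3.20e-05, limma), and had 1.06 to 1.14 with any single library left out. With a pseudocount of 1 in place of 0.1 it was 0.99, just under the fold threshold.

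Among the most strongly expressed anchored proteins were *Bst2* and *Ly6e*, both known as interferon-stimulated genes. *Bst2* encodes tetherin, which holds budding viruses at the cell surface. It had 292, 285 and 270.2 FPKM with control siRNA and 376, 358 and 365 FPKM with *Xbp1* siRNA, a log2 difference of 0.37 (standard error 0.038, adjusted p = 2.33e-04, limma). *Ly6e*, of the LY6 family, had 128, 124 and 121 FPKM with control siRNA and 168, 163 and 159.6 FPKM with *Xbp1* siRNA, a log2 difference of 0.40 (adjusted p = 1.50e-04, limma). Both genes were above every control library in every library with *Xbp1* siRNA, by 1.30-fold and 1.32-fold in the means.

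*Prnp*, the gene of the prion protein, had 36.3, 38.5 and 38.7 FPKM with control siRNA and 49.3, 52.9 and 49.9 FPKM with *Xbp1* siRNA. The conditions did not overlap, and the log2 difference was 0.42 (standard error 0.047, adjusted p = 3.61e-04, limma). CD59 blocks the membrane attack complex of complement. *Cd59* had 31.1, 29.0 and 33.2 FPKM with control siRNA and 33.9, 38.9 and 42.7 FPKM with *Xbp1* siRNA, so that the conditions were narrowly apart. Its log2 difference of 0.30 (adjusted p = 0.0304, limma) did not pass on leaving out control replicate 1, control replicate 2, *Xbp1* siRNA replicate 2 or *Xbp1* siRNA replicate 3, where the adjusted p lay between 0.0705 and 0.0962 (limma).

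*Plaur*, the urokinase receptor, had 72.7, 68.1 and 65.4 FPKM with control siRNA and 71.0, 63.2 and 62.4 FPKM with *Xbp1* siRNA. The libraries overlapped, and its log2 difference of −0.07 had an interval from −0.22 to 0.08. Ephrin-A genes encode anchored ligands of EphA receptors, and the 3 tested here did not pass either. *Efna3*, which is not among the members and was named after its values were seen, was higher (12.7 ± 0.986 against 18.4 ± 0.725 FPKM, adjusted p = 9.19e-04, limma). *Efna1* had 5.64 ± 0.607 and 5.74 ± 0.238 FPKM (log2 difference 0.03), and *Efna2* had 2.04 ± 0.713 and 1.66 ± 0.672 FPKM (−0.31, with an interval from −1.13 to 0.51). *Efna4* had 6.76, 6.15 and 6.20 FPKM with control siRNA and 8.61, 6.29 and 7.76 FPKM with *Xbp1* siRNA, a log2 difference of 0.23 (adjusted p = 0.179, limma), which passed without *Xbp1* siRNA replicate 2 with 0.36 (adjusted p = 0.0337, limma). Without *Xbp1* siRNA replicate 1 *Efna4* had 0.13 (adjusted p = 0.447, limma).

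**Figure D5:**
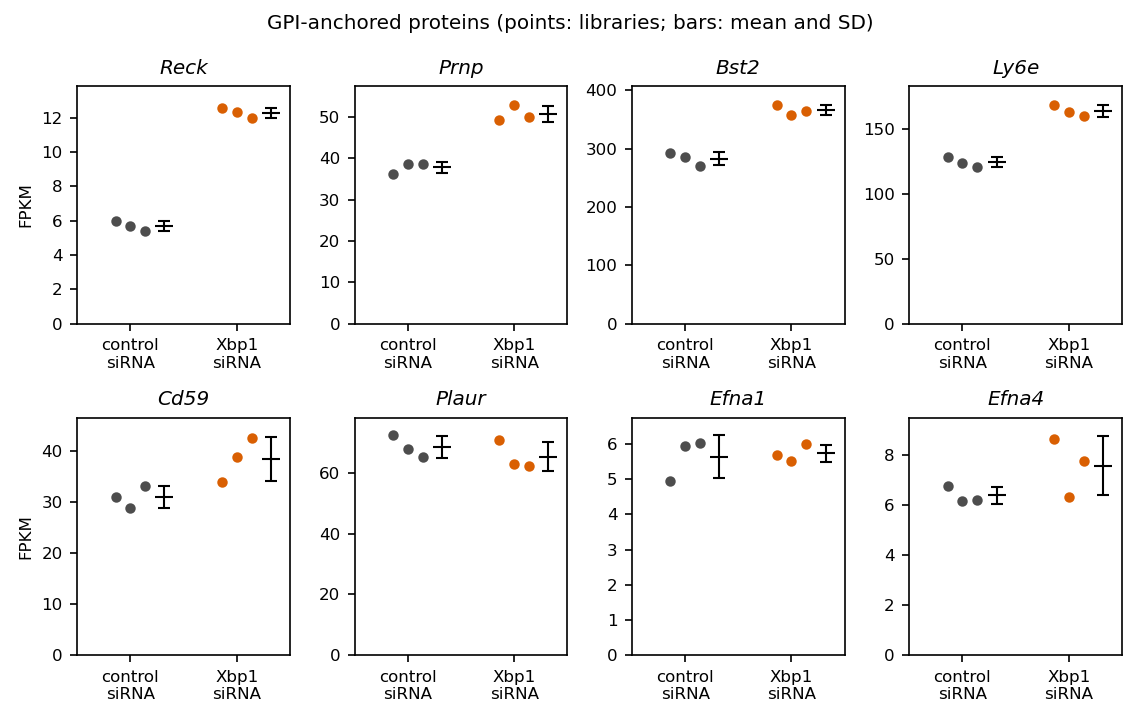
FPKM of 8 GPI-anchored proteins in each library (points) with the mean and SD (bars) for control siRNA and Xbp1 siRNA, 3 libraries each, on axes that start at 0. The conditions do not overlap for Reck, Prnp, Bst2, Ly6e and Cd59 and overlap for Plaur, Efna1 and Efna4; Reck shows the largest fold of the 8, 2.16, from 5.69 to 12.3 FPKM in the means.

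The remaining anchored proteins were close to or below the limit of detection. *Gfra1*, which encodes a receptor of glial cell line-derived neurotrophic factor, fell on steps that correspond to 8, 4 and 1 reads with control siRNA and to 3, 6 and 12 reads with *Xbp1* siRNA. Its log2 difference of 0.42 had an interval from −0.84 to 1.68. Without control replicate 3 it was 0.0023, and without control replicate 1 it was 0.78. *Nt5e*, the gene of the AMP-hydrolysing enzyme CD73, had values that correspond to 3, 0 and 7 reads and to 1, 6 and 0 reads. *Efna5* was above 0 in *Xbp1* siRNA replicates 2 and 3, *Lypd6* in *Xbp1* siRNA replicate 3 and *Cd55*, which encodes a complement regulator, in control replicate 3, each at under 0.06 FPKM. These 4 genes were not tested, and no difference was detectable at this depth. Read numbers taken from steps cover counting error only.

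Other genes of the pathway were taken from a list of 32 symbols, of which 29 were found and 28 tested. Of these, 9 were higher and 4 lower, or 32.1% and 14.3%, against 20.2% in each direction among all genes tested, and the median log2 difference was 0.13. The genes called higher were 2 of 28, against 2.69% of all genes tested, and both, *Notum* and *Tmem8a*, came from the group listed for release from the membrane. *Tmem8a* encodes PGAP6, a phospholipase that acts on GPI anchors. It had 2.94, 3.56 and 3.59 FPKM with control siRNA and 7.14, 7.07 and 6.92 FPKM with *Xbp1* siRNA, a log2 difference of 1.05 (adjusted p = 2.39e-04, limma). Without control replicate 1 *Tmem8a* had 0.96 and was not called. Nor was it called with a pseudocount of 1 (0.88) or after quantile normalization (0.99).

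*Notum* had 0.737, 0.792 and 0.804 FPKM with control siRNA and 2.91, 2.34 and 2.54 FPKM with *Xbp1* siRNA, a log2 difference of 1.61 (standard error 0.16, adjusted p = 2.25e-04, limma). It encodes a secreted enzyme known for removing a lipid from Wnt proteins, so that its place in this group rests on earlier reports of glypican release. *B3galt4*, a galactosyltransferase, was also higher, with a log2 difference of 0.48 (adjusted p = 0.0412, limma) and overlapping libraries. The genes of ER exit gave 4 of 12 higher and 1 lower, against 20.2% of all genes tested in each direction. The lower gene was *Tmed4*, a member of the p24 cargo receptor family, which had 80.1, 83.8 and 80.6 FPKM with control siRNA and 42.6, 41.4 and 43.2 FPKM with *Xbp1* siRNA. Its log2 difference was −0.94 (standard error 0.038, adjusted p = 4.16e-06, limma), and the conditions did not overlap.

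Of the 10 genes of precursor supply, 2 were higher and 3 lower, or 20% and 30%, against 20.2% of all genes tested in each direction. The largest decreases were in *Agps* and *Gnpat*, peroxisomal enzymes of ether lipid synthesis, with log2 differences of −0.50 (adjusted p = 0.0084, limma) and −0.31 (adjusted p = 0.0031, limma). *Agps* had 11.4, 12.8 and 14.1 FPKM with control siRNA and 8.30, 10.2 and 8.65 FPKM with *Xbp1* siRNA, with no overlap.

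Other GPI-anchored proteins were taken from a list of 74 symbols, of which 63 were found on 64 entries and 26 entries tested. Of these, 11 were higher, or 42.3%, and 2 lower, against 20.2% in each direction among all genes tested, 5 were called higher, against 2.69%, and the median log2 difference was 0.31. *Vnn1*, which encodes the pantetheinase vanin-1, was called higher, with 15.7, 15.5 and 18.4 FPKM with control siRNA and 37.3, 38.3 and 36.8 FPKM with *Xbp1* siRNA (log2 difference 1.18, standard error 0.072, adjusted p = 2.27e-05, limma). *Rtn4rl1*, of the Nogo receptor family, had a log2 difference of 1.23 (adjusted p = 6.76e-04, limma) and *Cpm*, the gene of carboxypeptidase M, of 1.48 (adjusted p = 0.0073, limma). *Cpm* fell on 5, 11 and 7 reads with control siRNA and on 31, 24 and 24 reads with *Xbp1* siRNA. With a pseudocount of 1, *Rtn4rl1* had 0.87 and *Cpm* 0.67, and neither was called. *Cd109* was 0.83 higher on the log2 scale (adjusted p = 3.88e-05, limma) and had 13.0 ± 0.218 FPKM with control siRNA against 23.1 ± 1.24 FPKM with *Xbp1* siRNA. *Gpc1*, a heparan sulfate proteoglycan, and *Rgma*, a co-receptor of BMP signalling, were lower, with log2 differences of −0.24 (adjusted p = 0.0017, limma) and −0.28 (adjusted p = 0.0236, limma).

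*Cntn2* and *Prnd* were also called higher but rest on few reads. *Cntn2* had a mean of 0.0513 FPKM with control siRNA and 0.282 FPKM with *Xbp1* siRNA. It passed the filter on low values only through the libraries with *Xbp1* siRNA, so its call carries no weight here. *Cntn2* fell on 2, 1 and 7 reads with control siRNA and on 15, 23 and 21 reads with *Xbp1* siRNA. *Prnd*, a relative of *Prnp*, fell on 3, 1 and 5 reads with control siRNA and on 19, 7 and 12 reads with *Xbp1* siRNA. Both lost the call on leaving out control replicate 1, control replicate 2, *Xbp1* siRNA replicate 1 or *Xbp1* siRNA replicate 3, and *Cntn2* also without *Xbp1* siRNA replicate 2, with adjusted p between 0.0641 and 0.137 (limma). With a pseudocount of 1 *Cntn2* had 0.29 and *Prnd* 0.42, and neither was called. The call was also lost after quantile normalization (adjusted p = 0.0544 and 0.05004, limma), and for *Cntn2* with the replicate block (adjusted p = 0.0724, limma).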

How the data were processed

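Stranded mRNA libraries of CHO-T cells with control siRNA (3) or *Xbp1* siRNA (3) were analysed. The authors deposited FPKM values per gene for each library. Per the submitters' processing notes, HISAT2 2.1.0 and Cuffdiff 2.2.1 were used, while the genome build and annotation are not given in the sources used here. The files hold no counts, so that a count model was not used. FPKM are relative to the reads of a library, and their sums differed between the conditions. Groups and replicate numbers were taken from the sample titles.

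Values were compared as log2(FPKM + 0.1) with limma 3.58.1 (R 4.3.3, eBayes with an intensity trend) over entries with a mean of at least 0.1 FPKM, with Benjamini-Hochberg adjustment over all entries tested. The fit was tested on simulated data. Low FPKM values lay on steps of single reads. The relative depth was taken first, from the commonest ratio between libraries among weak genes. With this depth, 65.6% of 3065 weak genes had values that were whole multiples of a step. The limit was 0.03 reads and was wider for larger read numbers. The multiples gave the read numbers of weak genes. Log2 values of libraries of the same condition correlated across genes with r from 0.966 to 0.972. Same-numbered libraries did not deviate together (r from −0.0289 to −0.0124), so that the fit had no replicate block.

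All 39 symbols were found in the RefSeq gene table of the assembly CriGri-PICRH-1.0, which was used for names only. Members and lists were chosen with earlier results of these data known. Values in every library are given for members that passed the test or were the strongest or weakest of their role, and also for some others, chosen after their values were seen. Of the other lists, genes that were called and up to 3 that differed most each way, at a mean of at least 1 FPKM, are named. Of 19 cell type markers, 16 were found. Alternatives were another pseudocount (1 or 0.01), another filter (a mean of 1 FPKM or none), median-ratio scaling, quantile normalization, eBayes without the trend, a replicate block, no fold threshold and leaving out each library.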

Additional observations from a re-analysis of the deposited data

How the results depend on the processing

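No member was lower or called lower under any alternative. The number of higher members, 17, was 15 without the trend, 19 with the replicate block and 15 to 18 on omitting single libraries. The number called higher, 1, was 0 with a pseudocount of 1, 2 with a pseudocount of 0.01, where *Pgap1* was added, and 17 without the fold threshold, with 1 to 2 on omitting single libraries. The median of the members, 0.27, was 0.31 after quantile normalization and 0.24 to 0.29 on omitting single libraries. That of all genes stayed between 0.0018 and 0.016. The number of members above 0, 31, was 28 after quantile normalization and 29 to 31 on omitting single libraries. Over all genes, 386 called higher became 242 with the filter at 1 FPKM, 114 with a pseudocount of 1 and 2898 without the fold threshold (329 to 380 on omitting single libraries), and 359 called lower became 205 with a pseudocount of 1 and 2904 without the fold threshold (346 to 369). Of the other pathway genes, 2 called higher became 1 with a pseudocount of 1, 1 after quantile normalization and 9 without the fold threshold (1 to 2), and 0 called lower became 4 without it. Of the other anchored proteins, 5 called higher became 2 with the filter at 1 FPKM, 1 with a pseudocount of 1, 3 after quantile normalization and 11 without the fold threshold (3 to 5), and 0 called lower became 2 without it.

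The replicate numbers did not pair the libraries. With them as a block, 363 genes passed as called higher and 353 as called lower, and *Pigc* (adjusted p = 0.0329, limma) and *Pgap3* (adjusted p = 0.0259, limma) passed in addition. Over 489 values of 35 members, the adjusted p of 10, all of *Cd59* and *Pigp*, no longer lay under 0.05. It fell under 0.05 for 6 values, and 12 values changed sign. The sign changed in members that did not pass the test: *Efna1* (−0.026 after quantile normalization and −0.061 to 0.080 on omitting single libraries), *Efna2* (−0.57 to 0.02), *Pigg* (−0.0028 after quantile normalization and −0.037 to 0.12), *Pigl* (−0.014 after quantile normalization) and *Pigy* (−0.048 to 0.090). The cause of these changes was not tested. At the depth of these libraries, genes under 0.1 FPKM rest on a few reads.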
